A study of Mus musculus with 16 samples.

Results

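Brain capillaries are lined by endothelial cells that tight junctions seal to one another. This report covers 33 mouse genes of that endothelium and of the blood-brain barrier it forms. They were taken as the non-control array features whose gene name matched a list of barrier and endothelial genes, and they are 33 of the 34821 gene names on the array. The study measured whole-brain RNA of male mice, labelled C57BL/6J, on 16 one-colour arrays, with 4 arrays in each of 4 groups. The groups were wild-type mice at 4 months (young wild type), Slc5a8-deficient mice at 4 months (young deficient), wild-type mice at 18 months (old wild type) and Slc5a8-deficient mice at 18 months (old deficient). Slc5a8 encodes a membrane carrier that moves lactate, pyruvate and related monocarboxylates with sodium; the labels do not describe the allele, and no treatment was given. The submitters describe the 4 arrays of a group as biological replicates.

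The barrier limits what passes between blood and brain. Claudin 5, occludin, ZO-1 and angulin-1 (Cldn5, Ocln, Tjp1 and Lsr) build the junctions, pumps such as P-glycoprotein (Abcb1a) return foreign compounds to the blood, and carriers bring in amino acids, lipids and, through the transferrin receptor, iron. Endothelial identity depends on receptors for vascular growth factors and on transcription factors of the SOX and ETS families. Some of these genes are not specific to vessels: Ocln and Slc22a8 are also expressed in choroid plexus epithelium, and Slc7a5 and Tfrc in other brain cells.

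The 3 genes that passed the test in at least 1 comparison below are shown by the first 30 bases of their 60-base probes, in lower case, 5′ to 3′, because each level is the brightness of that single stretch of transcript. The second Ocln probe and both Slc7a5 probes follow, since they compare separate parts of one transcript.
Ocln, transcript position 1925: aaatggcttttgataattgactgggctgaa
Ocln, transcript position 3070: cccaatttggtctgttttagctgaaaatgt
Slc22a8, transcript position 3403: gagctaatgactgctctcaagtatgtattt
Slc38a5, transcript position 1792: cctagatgaagctgttagggttaccctggc
Slc7a5, transcript position 533: tagtcttcgccacctacttgctcaagccgg
Slc7a5, transcript position 3363: gtggttataatgtcttttactattgtatta

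In the array's mm9 coordinates these probes lie at chr13:101268529-101268588 and chr13:101267384-101267443 on the minus strand for Ocln, chr19:8686250-8686309 on the plus strand for Slc22a8, and chrX:7857241-7857300 on the plus strand for Slc38a5. Those of Slc7a5 lie at chr8:124430996-124431055 and chr8:124405136-124405195 on the minus strand. No gene annotation of that build was used here, so exons and untranslated regions are not assigned.

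Of the 33 genes, 32 were tested. The remaining gene, Icam1, which encodes an adhesion molecule for leukocytes, was well above background on only 6 of 16 arrays, on 3 of the young deficient arrays and on 1 in each other group. The ETS factor gene Erg was the dimmest one kept and was above background on 15 arrays. The endothelial markers Cldn5, Cdh5 and Pecam1 were well above background in all groups. A level below is the log2 signal minus the 75th percentile of its own array; negative levels are dimmer than that percentile, and levels of different genes cannot be compared. Differences are on the log2 scale with the standard error of the limma fit. A gene was called when its p, adjusted by Benjamini-Hochberg over 23032 genes, was under 0.05. In whole brain, fewer endothelial cells and less RNA per endothelial cell cannot be told apart.

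Several features of the arrays touch every comparison. All deficient arrays were on one slide and all wild-type arrays on the other, so genotype and slide cannot be told apart, whereas both age comparisons within a genotype were made within a slide. Within each slide the ages lay in different rows, in opposite order on the slides. Row therefore cannot be told apart from age within a genotype, or from genotype within an age. It also cannot be told apart from the interaction of genotype and age. Array 1 of the young deficient group stood apart, at 97.2 on the first principal component of all genes against at most 26.5 on the others. It lay beyond all other 15 arrays for 20 of the 32 genes. Old wild type array 2 and young wild type array 4 came next on that component, at 26.5 and 26.1. All 3 arrays had the lowest Tjp1 and Cdh5 and the highest Kdr and Eng of their groups. Their 75th percentile signals were 625.7, 774.3 and 826.1, against 826.1 to 1348.3 elsewhere. The probe for Slc5a8 itself was near background on all 16 arrays, so it checks no label. The label gives one strain, but Wdfy1, whose level is known to differ between C57BL/6 substrains, lay on its brightest probe from 0.03 to 0.46 in young wild type and from 1.67 to 2.67 in the other 3 groups. Nnt, which is partly deleted in C57BL/6J, lay from 0.96 to 1.60 in young wild type and from 1.59 to 2.52 elsewhere. Both were chosen after their values were seen, and their part in the results was not tested.

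Deficient and wild-type brains differed in few of the barrier genes. At 4 months 1 of 32 was called, Ocln, which was lower in deficient brain; 1.53% of all genes were called. At 18 months 1 of 32 was called, the organic anion transporter gene Slc22a8, again lower in deficient brain, against 1.47% of all genes. Averaged over both ages the same 2 genes were called lower, against 3.19% of all genes. No barrier gene was called higher in deficient brain. The median difference over the 32 genes was -0.03 at 4 months and -0.10 at 18 months, beside 0.02 and 0.01 over all genes.

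**Figure D1:**
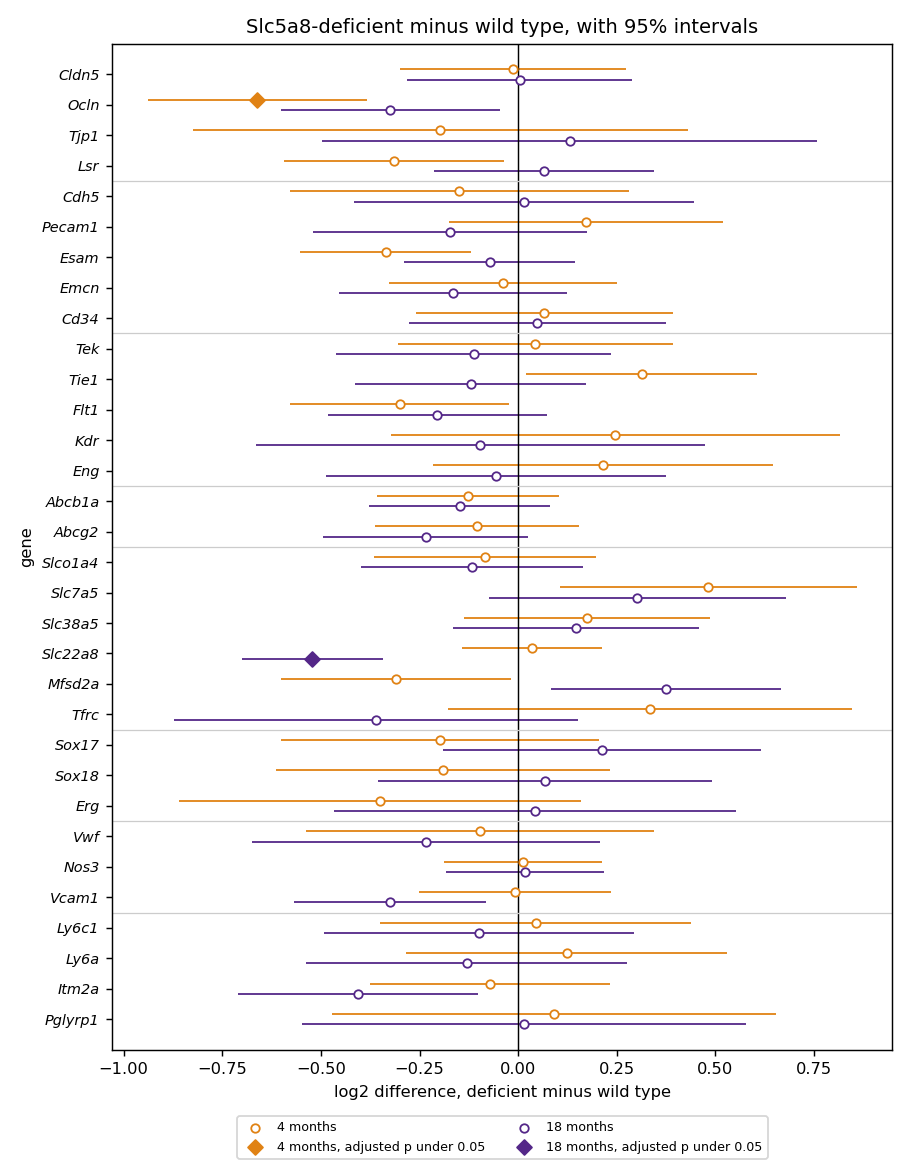
Log2 difference between Slc5a8-deficient and wild-type brain for each of 32 genes, at 4 months (orange) and 18 months (purple), with 95% intervals; filled diamonds passed an adjusted p of 0.05 and grey lines separate the gene roles. Only Ocln at 4 months, at -0.66, and Slc22a8 at 18 months, at -0.52, are filled, and the intervals of most other genes cross 0.

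Ocln encodes occludin, a membrane protein of tight junction strands. Its levels were -1.59, -2.04, -1.87 and -2.11 in young wild type and -2.73, -2.58, -2.65 and -2.28 in young deficient brain. Every young deficient array was below every young wild-type array. The difference was -0.66 ± 0.13 (n = 4 against 4, adjusted p = 0.022), a 1.58-fold lower signal. At 18 months the levels were -1.88, -2.07, -1.98 and -1.97 in wild type and -2.34, -2.40, -2.04 and -2.41 in deficient brain. Array 3 of old deficient lay within the wild-type range and the other 3 arrays below it, and the difference of -0.32 ± 0.13 was not called (adjusted p = 0.37). Over both ages it was -0.49 ± 0.09 (adjusted p = 0.0079). The interaction of genotype and age was 0.34 with a 95% interval of -0.05 to 0.73, so the differences at the 2 ages were not shown to be unequal.

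The Ocln probe nearer the transcript's end, dimmer than the first, differed by -0.69 ± 0.25 at 4 months (adjusted p = 0.18 over 33074 probes) and by -0.20 ± 0.25 at 18 months. It had the same sign as the first probe at both ages and about the same size at 4 months, but its spread was larger and it was not called. The call at 4 months was made in 16 of 25 alternatives. It ended with normexp background correction, where the difference shrank to -0.44 (adjusted p = 0.065), with array median scaling (0.053), no filter on dim probes (0.055), the mean of both probes (0.065) and the replicate number as a block (0.054). It also ended when any of young wild-type arrays 1 or 3 or young deficient arrays 2 or 3 was left out (adjusted p from 0.052 to 0.068). The average over both ages was called in each of the 25 alternatives.

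Choroid plexus markers were read beside Ocln. All 10 markers of a fixed choroid plexus list had lower levels in young deficient than in young wild-type brain, with a median difference of -0.77 and none called. The list's median over its 10 genes, relative to each gene's mean, was 1.76, -0.13, 0.52 and 0.42 on arrays 1 to 4 of young wild type and -0.12, -0.02, 0.04 and -0.48 on those of young deficient brain. At 18 months it was -0.33, -0.62, 0.02 and 0.43 in wild type and -0.40, -0.996, -0.23 and 0.26 in deficient brain. All 10 genes were tested. The list and Ocln were both highest on young wild type array 1, but on array 4 of young deficient brain the list was lowest of its group and Ocln highest, and on array 4 of old deficient brain the list was highest and Ocln lowest. Its part in the Ocln difference was not tested.

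Among the other junction genes none was called. Cldn5, the main sealing claudin of brain endothelium, differed by -0.01 at 4 months and 0.00 at 18 months, and its 95% interval averaged over ages ran from -0.21 to 0.20. Lsr, which encodes angulin-1 of tricellular junctions, had levels of 2.51, 2.24, 2.31 and 1.93 in young wild type and 1.69, 1.98, 2.0 and 2.06 in young deficient brain. The groups overlapped, and the difference of -0.31 ± 0.13 was not called (adjusted p = 0.23). Tjp1, which encodes the scaffold ZO-1, differed by -0.20 and 0.13 at the 2 ages, with the widest spread of the 4 junction genes: its level was 0.63 on young deficient array 1 and between 1.98 and 2.02 on the other 3 arrays of that group. It was also low on young wild type array 4 (1.26) and old wild type array 2 (1.33).

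Of 5 genes of endothelial junctions and surface, Esam stood nearest to a call. This cell adhesion molecule had levels of 0.42, 0.35, 0.17 and 0.06 in young wild type and -0.02, 0.04, -0.15 and -0.22 in young deficient brain. The groups did not overlap, yet the difference of -0.34 ± 0.10 missed the threshold (adjusted p = 0.11). At 18 months it was -0.07, with overlapping levels of 0.04, 0.07, 0.10 and -0.12 in wild type and -0.10, 0.00, 0.08 and -0.17 in deficient brain. Cdh5 (VE-cadherin), Pecam1, Emcn (endomucin) and Cd34 had differences between -0.17 and 0.17 at either age. Groups failed to overlap at 4 months for 3 of the 32 genes, Ocln, Esam and Flt1, all lower in deficient brain; 9.45% of all genes did so.

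The growth factor receptors pointed both ways at 4 months. Flt1, a VEGF receptor that also acts as a decoy, differed by -0.30, while Tie1, Kdr, Eng and Tek differed by 0.31, 0.25, 0.21 and 0.04. Tie1, an orphan receptor of the angiopoietin system, had levels of -1.88, -2.02, -2.07 and -1.62 in young wild type and -1.34, -1.78, -1.59 and -1.63 in young deficient brain. The highest of these was young deficient array 1, and the groups overlapped (adjusted p = 0.25). For Kdr, the main signalling receptor for VEGF, that same array was at 3.24 and the other 3 of its group between 2.11 and 2.29. Kdr was also the highest of its group on young wild type array 4 (2.90) and old wild type array 2 (2.76). At 18 months all 5 receptors were at or below -0.06, with none below -0.21 and none called.

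Both efflux pump genes had small negative differences at both ages. Abcb1a averaged -0.14 ± 0.08 and Abcg2, the breast cancer resistance protein, -0.17 ± 0.09, with upper 95% bounds of 0.02 and 0.01. Neither was called (adjusted p = 0.43 and 0.38). An added fit, chosen after seeing the data, left out the 3 arrays highest on the first principal component (young deficient 1, old wild type 2 and young wild type 4). Abcg2 was called lower there at 18 months and over both ages.

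Slc22a8, which encodes the organic anion transporter OAT3, had the largest negative genotype difference of the 32 genes at 18 months. Its levels were -1.30, -1.24, -1.41 and -1.29 in old wild type and -1.78, -1.97, -1.84 and -1.73 in old deficient brain. At 4 months they were -1.43, -1.45, -1.29 and -1.33 in wild type and -1.35, -1.43, -1.22 and -1.37 in deficient brain. The 4 old deficient arrays lay below the other 12, which ranged from -1.45 to -1.22. The genotype difference was -0.52 ± 0.08 at 18 months (adjusted p = 0.0041), a 1.44-fold lower signal, and 0.04 ± 0.08 at 4 months. The average over ages was -0.24 ± 0.06 (adjusted p = 0.036). That average lost its call in 15 of 25 alternatives, 11 of which left out a single array, with adjusted p up to 0.086. The 18-month call held in all 25, with adjusted p up to 0.022.

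The interaction for Slc22a8 was -0.56 ± 0.12, and it missed the threshold over all genes (adjusted p = 0.092). The choroid plexus list, whose tissue also expresses this transporter, had a median difference of -0.24 at 18 months, with 9 of 10 genes lower and none called. Within old deficient brain both the list and Slc22a8 were highest on array 4 and lowest on array 2. In old wild type, though, the list was lowest on array 2 (-0.62) and Slc22a8 highest there (-1.24). Both were highest on array 3 of young deficient brain and lowest on array 2 of young wild type. On array 1 of young wild type the list was highest, at 1.76, and Slc22a8 was at -1.43. Red blood cell genes were also low in old deficient brain: of 8 tested, Alas2 (-2.41, adjusted p = 0.034), Hbb-b1 (-2.09, adjusted p = 0.027) and Hbb-b2 (-1.99, adjusted p = 0.041) were called lower than in old wild type. The list's median, relative to each gene's mean, was -2.12, -2.01, -0.10 and -1.38 on the 4 old deficient arrays and from 0.00 to 1.86 on the other 12, so those groups did not overlap, as for Slc22a8. The part of either list in the Slc22a8 difference was not tested.

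**Figure D2:**
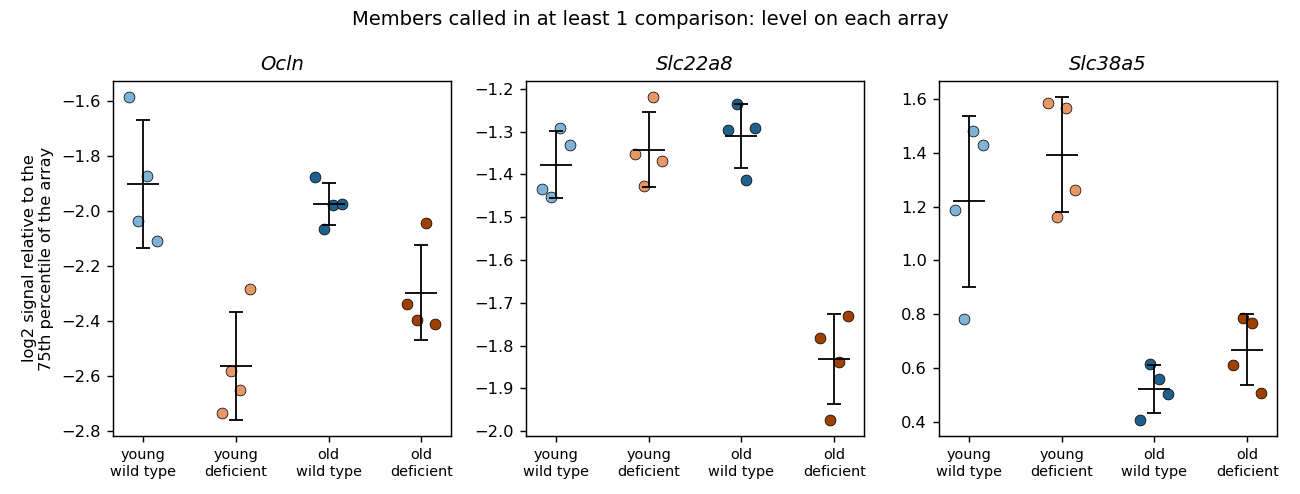
Level of Ocln, Slc22a8 and Slc38a5 on each array, in log2 signal relative to the array's 75th percentile; points are arrays, bars the mean and SD of 4 arrays. Ocln was lowest in young deficient brain, Slc22a8 was low in old deficient brain alone, and Slc38a5 was lower in both old groups.

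The other carriers were not called for genotype. Mfsd2a, which carries docosahexaenoic acid as lysophosphatidylcholine and restrains transcytosis, had levels of 2.64, 2.61, 2.48 and 2.46 in young wild type and 2.62, 1.95, 2.30 and 2.08 in young deficient brain. At 18 months they were 2.08, 1.93, 1.77 and 2.15 in wild type and 2.38, 2.28, 2.21 and 2.55 in deficient brain. Thus deficient brain had the lower mean at 4 months (-0.31 ± 0.14), with overlap, and the higher level on every array at 18 months (0.37 ± 0.14). Neither difference was called (adjusted p = 0.26 and 0.28), nor was the interaction of 0.68 ± 0.19 (adjusted p = 0.23).

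Slc7a5, the large neutral amino acid transporter LAT1, gave opposite signs from its 2 probes. The probe at position 533 had levels of 1.69, 1.94, 2.18 and 2.49 in young wild type and 2.93, 2.43, 2.20 and 2.66 in young deficient brain. In old wild type it was at 1.74, 2.24, 2.14 and 1.93, and in old deficient brain at 2.42, 2.21, 2.31 and 2.33. Averaged over ages it was higher in deficient brain by 0.39 ± 0.13, and the probe at position 3363 was lower there by -0.30 ± 0.08. Since the probes disagree and neither was called (adjusted p = 0.12 and 0.079 over all probes), no direction can be given for Slc7a5. In the added fit without 3 arrays, which reads the brightest probe, Slc7a5 was called over both ages. Slco1a4 (OATP1A4) averaged -0.10, with an interval from -0.30 to 0.10. Tfrc, the transferrin receptor, differed by 0.33 at 4 months and -0.36 at 18 months, uncalled; its 3 probes had the same signs at each age.

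Differences for the transcription factors Sox17, Sox18 and Erg were between -0.35 and -0.19 at 4 months and between 0.04 and 0.21 at 18 months, with none called. At the blood interface, Vwf, which encodes von Willebrand factor, and Nos3, the endothelial nitric oxide synthase, were not called. Vcam1, a leukocyte adhesion molecule, had levels of 1.63, 1.45, 1.52 and 1.49 in old wild type and 1.11, 1.25, 1.34 and 1.08 in old deficient brain. These groups did not overlap, and the difference was -0.32 ± 0.11 (adjusted p = 0.26). Its dimmer second probe differed by -0.03. Itm2a, a membrane protein enriched in brain endothelium, had levels of 3.24, 3.03, 2.86 and 3.44 in old wild type and 2.62, 2.80, 2.84 and 2.68 in old deficient brain, again without overlap (-0.41 ± 0.14, adjusted p = 0.26). In all 5 of 32 genes did not overlap at 18 months, Mfsd2a and Sox17 being higher and Slc22a8, Vcam1 and Itm2a lower in deficient brain; 8.1% of all genes did so.

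With age, 1 carrier fell. Slc38a5, which encodes the glutamine transporter SNAT5, was called lower at 18 than at 4 months averaged over genotypes, the only barrier gene of 32, against 1.61% of all genes. In wild type 0 of 32 genes were called by limma, against 0.421% of all genes. At an unadjusted p under 0.05 there were 5 of the 32 and 1463 of all 23032 genes. In deficient brain 2 of 32 were called, Slc38a5 and Slc22a8, both lower at 18 months, against 2.39% of all genes. None was called higher with age. The median age difference over the 32 genes was -0.04 in wild type and -0.12 in deficient brain, beside 0.00 and -0.01 over all genes.

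**Figure D3:**
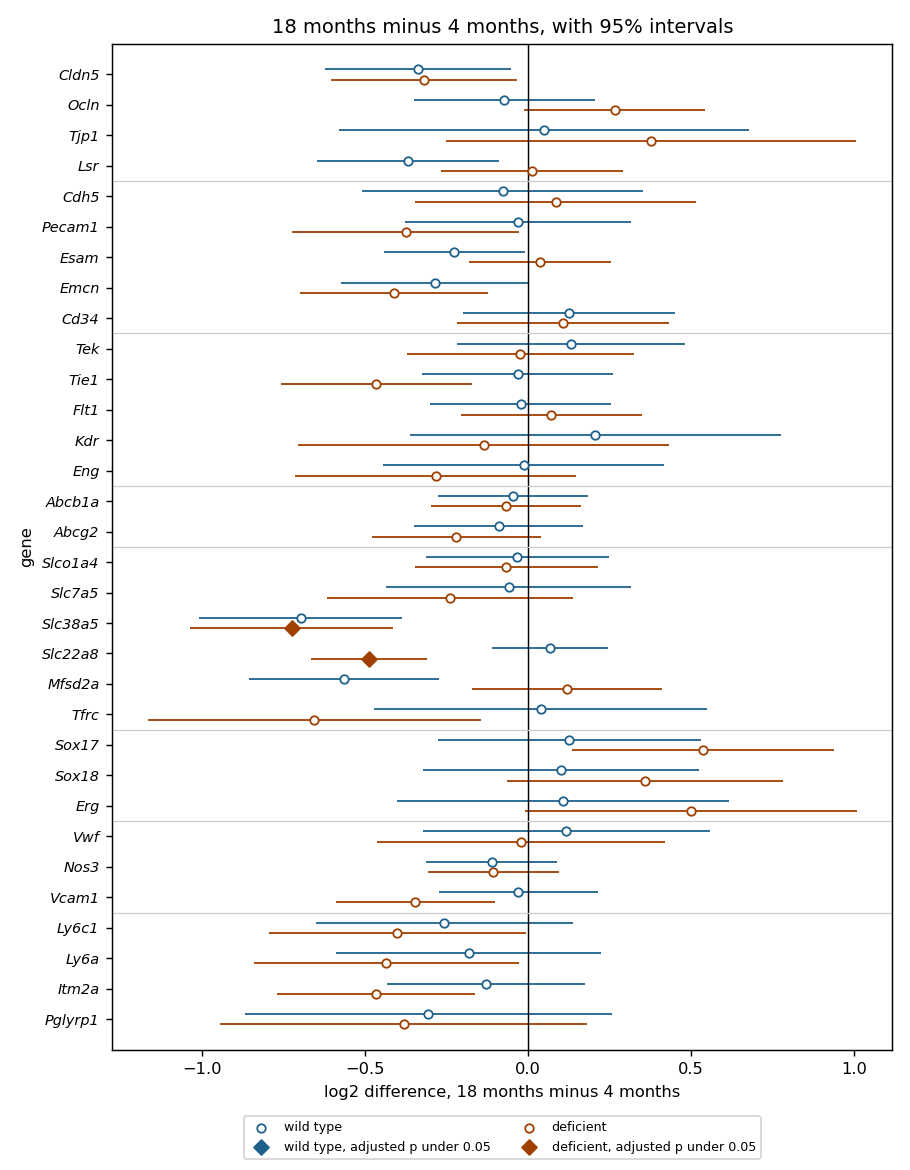
Log2 difference between 18 and 4 months for each of 32 genes in wild type (blue) and deficient brain (brown), with 95% intervals; filled diamonds passed an adjusted p of 0.05. Slc38a5 lies near -0.7 in both genotypes, and Slc22a8 at -0.49 in deficient brain but 0.07 in wild type.

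Slc38a5 levels were 1.19, 0.78, 1.48 and 1.43 in young wild type and 0.41, 0.61, 0.56 and 0.50 in old wild type. In deficient brain they were 1.58, 1.16, 1.57 and 1.26 at 4 months and 0.61, 0.79, 0.77 and 0.51 at 18 months. Within each genotype every old array was below every young array. The mean difference was -0.71 ± 0.10 (8 against 8 arrays, adjusted p = 0.0022), a 1.64-fold lower signal. It was -0.70 ± 0.15 in wild type (adjusted p = 0.056) and -0.72 ± 0.15 in deficient brain (adjusted p = 0.020). The interaction was -0.03, with a 95% interval from -0.47 to 0.41, which leaves room for unequal falls. The average was called in all 25 alternatives; the call within deficient brain ended without old deficient array 1, 2 or 4, with adjusted p up to 0.066.

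Slc22a8, whose levels are given above, was lower at 18 months in deficient brain by -0.49 ± 0.08 (adjusted p = 0.0092) and differed by 0.07 ± 0.08 in wild type. Mfsd2a showed the other order: it differed by -0.57 ± 0.14 in wild type (adjusted p = 0.12), where no old array reached a young one, and by 0.12 in deficient brain. Without young deficient array 1, Mfsd2a and Slc38a5 were both called in wild type. Tfrc differed by -0.66 ± 0.24 in deficient brain (adjusted p = 0.15) and by 0.04 in wild type; without young deficient array 1 it was called in deficient brain.

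Cldn5 had levels of 4.11, 3.70, 3.67 and 3.90 in young wild type and 3.52, 3.77, 3.49 and 3.25 in old wild type. In deficient brain it was at 4.09, 3.64, 3.74 and 3.86 at 4 months and at 3.37, 3.52, 3.65 and 3.51 at 18 months. Old levels were mostly lower with overlap in both genotypes, and the mean age difference was -0.33 ± 0.09 (adjusted p = 0.10). Lsr differed by -0.37 in wild type, with old levels of 2.01, 1.72, 2.03 and 1.76, and by 0.01 in deficient brain, where they were 1.87, 1.80, 2.11 and 1.99. Ocln and Tjp1 were not called with age in either genotype.

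Emcn, a mucin of capillary and venous endothelium, had levels of -1.82, -2.07, -1.95 and -1.84 in young wild type and -2.20, -2.00, -2.38 and -2.24 in old wild type. In deficient brain it was at -1.62, -2.15, -1.89 and -2.17 at 4 months and -2.26, -2.42, -2.18 and -2.61 at 18 months. The old arrays of deficient brain were all below the young ones, and in wild type the groups overlapped. The mean age difference of -0.35 ± 0.10 was not called (adjusted p = 0.088). Tie1 differed by -0.47 ± 0.14 in deficient brain (adjusted p = 0.083), where old levels were -2.11, -2.01, -1.99 and -2.09, and by -0.03 in wild type, where they were -1.75, -1.87, -2.32 and -1.78. The interaction for Tie1 was -0.43 ± 0.19 (adjusted p = 0.46).

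The 4 other endothelial markers, Ly6c1, Ly6a, Itm2a and Pglyrp1, all had negative age differences, from -0.31 to -0.13 in wild type and from -0.47 to -0.38 in deficient brain. None was called. Ly6c1 and Ly6a are closely related genes of one cluster, so their probes may share signal. Young deficient array 1 was the highest of its group for Ly6a, at 2.69 against 1.65 to 1.72 on the other 3 arrays, and for Pglyrp1, at 0.86 against -0.67 to -0.46. The same held for Ly6c1, at 5.31 against 4.24 to 4.45. Itm2a levels in young deficient brain were 2.98, 3.07, 3.32 and 3.44, all above those of old deficient brain (-0.47 ± 0.14, adjusted p = 0.095). In young wild type they were 3.40, 3.44, 3.27 and 2.98. Vcam1 differed by -0.35 in deficient brain, with young levels of 1.52, 1.65, 1.44 and 1.55, and by -0.03 in wild type, with young levels of 1.85, 1.24, 1.58 and 1.53.

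By contrast the 3 transcription factors had positive age differences in both genotypes, from 0.10 to 0.13 in wild type and from 0.36 to 0.54 in deficient brain. None was called, and Sox17 in deficient brain (0.54 ± 0.19, adjusted p = 0.14) did not overlap between ages. Its second probe differed by 0.49 there. On young deficient array 1 Sox17 was at -1.54, against -1.13 to -0.93 on the other arrays of that group. Sox18 went the opposite way on that array, at 0.06 against -0.95 to -0.54. Erg, near background, was at -5.90 and -6.16 on young deficient arrays 1 and 4, and at -5.11 and -5.15 on arrays 2 and 3. In deficient brain 9 of 32 genes did not overlap between ages: Sox17 was higher, and Pecam1, Emcn, Tie1, Slc38a5, Slc22a8, Vcam1, Ly6a and Itm2a were lower. The share over all genes was 18.0%. In wild type 2 of 32 did not overlap, Slc38a5 and Mfsd2a, against 3.5% of all genes.

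No interaction of genotype and age was called among the 32 genes by limma, against 0.187% of all genes. At an unadjusted p under 0.05 were 3 of the 32 (Slc22a8, Mfsd2a and Tie1) and 2446 of all 23032 genes.

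**Figure D4:**
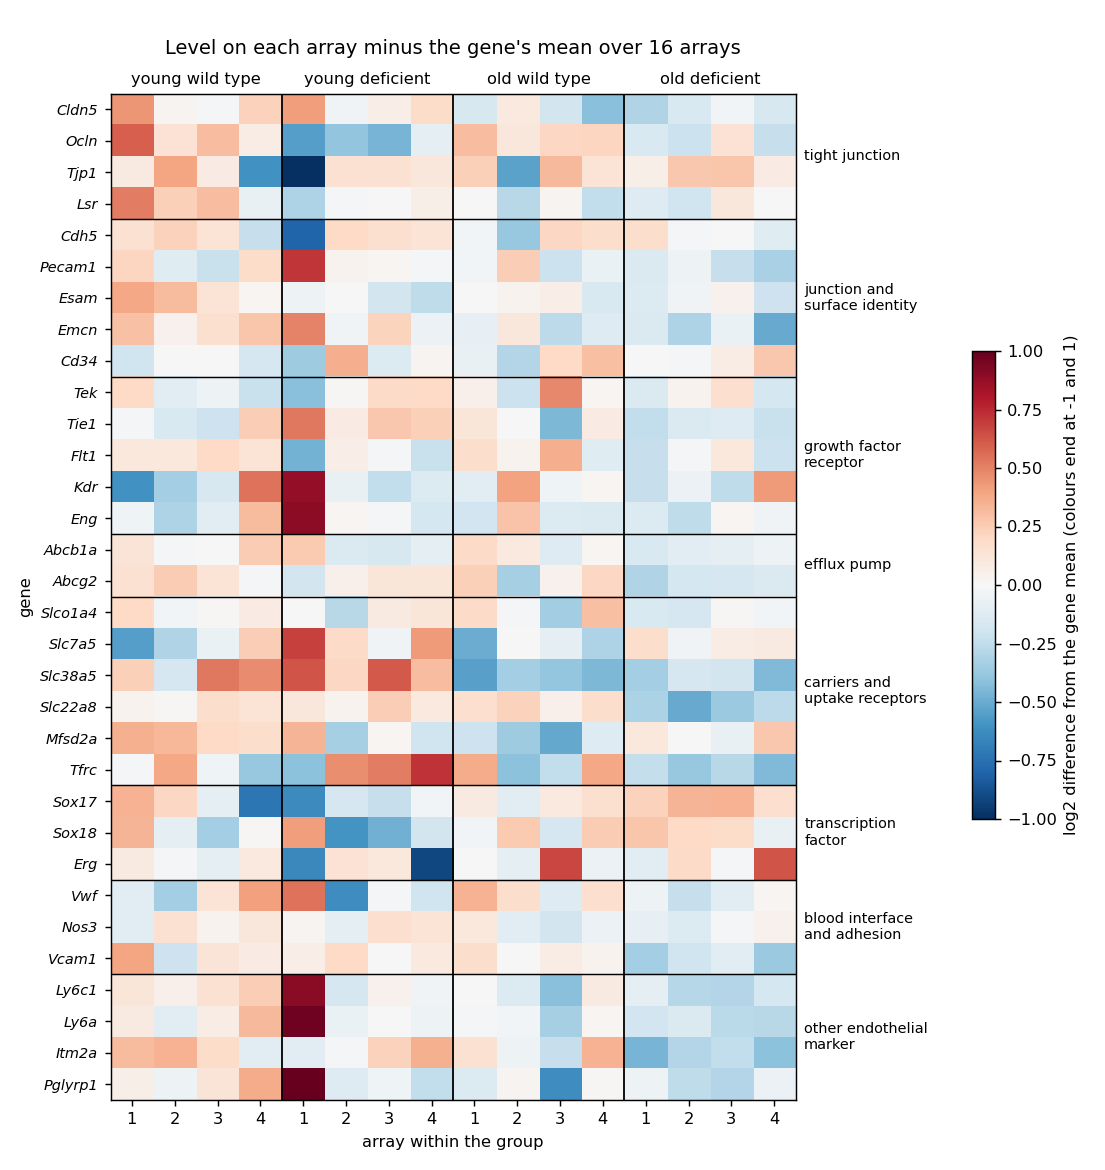
Level of each of 32 genes on each of 16 arrays minus that gene's mean, in log2 units; rows are ordered by role and columns by group, and colours end at -1 and 1. Array 1 of young deficient brain holds the strongest colours in both directions, with Tjp1 and Cdh5 low and Kdr, Eng, Ly6c1, Ly6a and Pglyrp1 high.

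The 32 genes did not vary as one block. After group means were taken out, a gene's median correlation with the other 31 ranged from -0.29 for Tjp1 to 0.39 for Vwf over the 16 arrays; these share the arrays' RNA and hybridisation, so they are descriptions only. The genes whose residuals followed Ocln most closely were Cdh1 (r = 0.90), Mab21l1 (0.89), Tmem123 (0.87), Nup54 (0.86) and Kat2b (0.86). For Slc38a5 they were Ch25h (0.86), Tgm2 (0.85), Trf (0.84), an unnamed chromosome 19 transcript (0.84) and Glrx3 (0.83). For Slc22a8 they were Nmu, Nkx6-2, Adamtsl4, an unnamed transcript and Aox1, with r from 0.77 to 0.79. None of these is among the 33 genes.

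RefSeq promoter windows (GRCm38.p6), from 250 bases before to 50 after a transcript start, were found for 23 of the 33 genes. The ETS core GGAAGT, searched on both strands, was present in 8 of these 23 (34.8%), Abcg2, Eng, Flt1, Kdr, Lsr, Ly6c1, Tfrc and Tie1, and in 26.5% of 27025 genes. The TCF and LEF core CTTTGA was in 13.0% and 18.2%, and the SOX core ACAATG in 13.0% and 14.3%. None of the 3 was found for Ocln, Slc22a8 or Slc38a5, which says only that these letters are not in these windows. The genes with no window were Slc7a5, Cdh5, Esam, Sox17, Ly6a, Nos3, Vcam1, Vwf, Sox18 and Pecam1.

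Other vascular genes came from lists fixed with earlier results of these data known. Of 33 tested genes in a further list of brain endothelial genes, 1 was called at 4 months: Pltp, a phospholipid transfer protein, was higher in deficient brain by 0.51 ± 0.11 (adjusted p = 0.031). With age it fell by 0.62 in deficient brain (adjusted p = 0.0097), and its interaction was -0.82 ± 0.15 (adjusted p = 0.045). No other gene of that list was called in any comparison. Its median genotype differences were -0.05 and -0.09 at 4 and 18 months, beside 0.02 and 0.01 over all genes.

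Of 17 genes of Wnt and Norrin signalling, which induces and keeps the barrier, 1 was called for genotype averaged over ages, against 3.19% of all genes. This was the Norrin receptor gene Fzd4, higher in deficient brain by 0.40 ± 0.09 (adjusted p = 0.030). The list as a whole leaned the other way: 14 of the 17 genes were lower in deficient brain, with a median of -0.07. With age in deficient brain, Wnt7a, a ligand made by neural cells, fell by 1.05 (adjusted p = 0.030) and the transcription factor gene Tcf7 rose by 0.61 (adjusted p = 0.025). Of 19 genes of VEGF, angiopoietin and Notch signalling, the ligand gene Apln alone was called, with a genotype difference at 18 months of -0.68 ± 0.15 (adjusted p = 0.040) and lower with age in deficient brain by -0.89 (adjusted p = 0.0097).

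Of 7 tested genes of leaky or activated endothelium, 1 was called at 4 months, against 1.53% of all genes. This was Plvap, higher in deficient brain by 1.10 ± 0.24 (adjusted p = 0.033). At 4 months 5 of the 7 genes were lower in deficient brain, with a list median of -0.19. Ch25h had the lowest difference, -1.17 ± 0.35, and was not called (adjusted p = 0.11 by limma). Averaged over ages Plvap was higher by 0.84 ± 0.17 (adjusted p = 0.012). It encodes the protein of fenestral diaphragms, which barrier endothelium lacks and which vessels of the choroid plexus and pituitary carry. Choroid plexus and pituitary marker lists had median genotype differences of -0.77 and -1.20 at 4 months. Their part in the Plvap difference was not tested. Of 13 arterial and venous genes, Ephb4, a venous receptor, was higher in deficient brain by 0.49 ± 0.08 at 4 months (adjusted p = 0.0060) and by 0.70 ± 0.08 at 18 months (adjusted p = 0.00019). None of these vascular lists gave a call in wild type with age.

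Markers of other cells were read on the same arrays. Pericyte markers gave no call in any comparison over 14 genes, and neither did 8 arterial smooth muscle genes. Of 12 fibroblast genes the collagens Col1a1, Col1a2 and Col3a1 were called lower with age, averaged over genotypes, by -0.89, -0.58 and -0.93. The median of 6 tested pituitary genes, relative to each gene's mean, ranged from -0.48 to 5.26 in young wild type, from -0.10 to 3.56 in young deficient, from -2.47 to -0.75 in old wild type and from -3.02 to 1.33 in old deficient brain. Of the 8 red cell genes, 5 were called lower with age in deficient brain, by -2.75 for Alas2, which makes haem in red cell precursors, and by -2.27 to -1.64 for the globin genes Hbb-b1, Hbb-b2, Hba-a1 and Hba-a2, which are near copies of one another in pairs. Slc22a8 and Slc38a5 were called lower in that same comparison. In wild type, Slc38a5 differed with age by -0.70 and Slc22a8 by 0.07, both uncalled, and the red cell list by a median of -0.27. The red cell list ranged from 0.04 to 1.86 in young deficient, from 0.30 to 0.84 in young wild type and from 0.00 to 0.71 in old wild type. The part of these lists in the age and genotype differences above was not tested.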

How the data were processed

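RNA of 16 whole brains was labelled with Cy3 and hybridised to Agilent mouse arrays, per the labels' protocols. The deposited scanner files give each spot's intensity, read with Feature Extraction 10.7.3.1, per the file headers; gProcessedSignal is background-corrected there. A deposited table of log2 values was normalized by the authors with steps not given in the sources used here; limma is named in the submitters' processing notes.

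Among the 59305 spots per array that are not controls, the scanner software marked 58.4% to 66.1% as well above background and 0 as saturated, and 98 to 182 were flagged and left out. The number of arrays limits the precision. Signals were put on log2 and the array's 75th percentile was subtracted. A probe stayed in when any of the 4 groups had it well above background throughout (33074 of 55681), and each gene was represented by its brightest kept probe, which left 23032 genes. limma 3.58.1 in R 4.3.3 fitted 4 group means (12 residual degrees of freedom), and 7 contrasts were tested with Benjamini-Hochberg adjustment. The fit was tested on simulated data. Intervals are 95% intervals of the moderated fit.

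The genes and lists were chosen with earlier results of these data known. Values on each array were given for genes called in any contrast and for the 4 with the smallest p in each. One gene that belongs to a list is not reported here. The age and strain entries of the labels are interchanged; ages were read from the values.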

Additional observations from a re-analysis of the deposited data

Results flagged for a closer look

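In 10 of 128 sets of 4 arrays, 1 array stood far from the other 3 by Dixon's ratio; chance gives about 1 in 20 such sets. Array 1 of young deficient brain accounted for 7 of the 10. Its level was 0.63 for Tjp1 and -1.74 for Cdh5, below the other 3 arrays of its group. It was -1.52 for Pecam1, 3.24 for Kdr, 1.63 for Abcb1a, 2.69 for Ly6a and 0.86 for Pglyrp1, above the other 3. In old wild type, array 2 stood apart for Eng at 0.43, and array 3 for Erg at -4.59 and for Ly6a at 1.38. Eng was also the highest of its group on young deficient array 1 (1.04) and young wild type array 4 (0.47), without being flagged.

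The genotype difference of Pltp changed between the ages, with an interaction of -0.82 (adjusted p = 0.045 by limma). That of Wdfy1, the gene read as a substrain marker, changed by -2.34 (adjusted p = 0.00056), with young wild type apart from the other 3 groups. As given above, an interaction and the row on the slide cannot be told apart. Besides the 32 genes, only Pltp and Wdfy1 were screened for an interaction in this section. The astrocyte endfoot and oligodendrocyte lists each held 1 called interaction as well.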

How the results depend on the processing

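The 7 called differences were recomputed under 25 alternatives, 1 of them added after seeing the data, and no called difference changed sign. Medians over the 32 genes were also recomputed, but how far they moved is not given here. Calls of Slc22a8 at 18 months and with age in deficient brain, of Ocln over both ages and of Slc38a5 over both genotypes held in all 25. The count of called genes at 4 months went from 1 to 0 with normexp background correction, array median scaling, no filter on dim probes, the mean of a gene's probes and the replicate block. The count over both ages went from 2 to 1 with normexp, no filter and the replicate block. In wild type with age it went from 0 to 1 with array median scaling. Without the 3 arrays highest on the first principal component it went from 1 to 2 at 18 months (Abcg2 gained), from 2 to 3 over both ages (Abcg2 and Slc7a5 gained, Slc22a8 lost) and from 2 to 3 in deficient brain with age (Tfrc gained). Leaving out 1 array at a time gave 0 to 1 called at 4 months, 1 to 2 over both ages, 0 to 2 in wild type with age and 1 to 3 in deficient brain with age; a group left with 3 arrays shared the pooled spread. Replicate numbers, which are also slide columns, are not said to pair the samples. Deviations of same-numbered arrays correlated from -0.44 to 0.27, which with 4 arrays a group cannot show whether samples were paired. With the replicate block, Ocln at 4 months was -0.66 (adjusted p = 0.054) and Slc22a8 over both ages -0.24 (adjusted p = 0.075). With 4 arrays a group and genotype on separate slides, small differences and slide effects limit what can be read; Icam1 and Erg lie near background.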
